A study of Mus musculus with 32 samples.

Results

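The genes described here encode the proteins of the cytosolic ribosome in mouse bone marrow-derived macrophages (BMDMs). They were taken as every gene on the array whose symbol reads Rps, Rpl or Rplp followed by its number and, where present, the letters of an X-linked form or a paralog, together with Rpsa and Fau. Symbols marked as pseudogenes and the S6 kinases were left out. The rule found 85 genes, of which 83 passed the filter on dim probes and stood among the 16065 genes tested. The members were 33 small-subunit genes, 42 large-subunit genes, the 3 stalk genes Rplp0, Rplp1 and Rplp2, and 7 paralogs. The paralogs Rpl3l and Rpl10l were not retained, and Rps4l had no probe under that symbol. Each gene was read from its brightest probe, and 63 of the 83 had more than 1 probe to compare.

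The study asked how necrosome stimulation changes the macrophage transcriptome before cell death. BMDMs from C57BL/6J mice (WT) and from Ifnar1-/- mice, which lack a chain of the type I interferon receptor throughout the body, were hybridised to 1-colour Agilent arrays after 6 h. Each genotype was left untreated or given zVAD, LPS, LPS+zVAD, LPS+zVAD+Nec-1, IFNβ, IFNβ+zVAD or IFNβ+zVAD+Nec-1. The sample labels give 100 ng/mL for LPS, the bacterial ligand of TLR4, and 1000 U/mL for IFNβ, whereas the study's methods and legends state lower doses of LPS and other doses of IFNβ, so the doses are uncertain. zVAD blocks caspases as a class, whereas Nec-1 blocks the kinase activity of RipK1. The 16 groups had 2 arrays each, and nothing in the labels says whether these came from separate animals or cultures. The p-values therefore measure only the spread between the arrays, which may be technical.

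A ribosome joins a small subunit, which reads the mRNA, to a large subunit, which forms the peptide bonds, and each protein is needed in about the same number of copies. The mRNAs of these proteins are among the most abundant in a growing cell and begin with a C followed by a run of pyrimidines, the 5′ terminal oligopyrimidine (TOP) motif, through which mTOR signalling and Larp1 control their translation. Their promoters are compact and often hold sites for ETS-family factors.

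Sequence around the annotated transcription start was available for 64 of the 85 members (RefSeq, GRCm38.p6). The windows run from 5 bases before to 25 bases after the start, written 5′ to 3′ on the gene's strand, and capitals mark an unbroken run of at least 8 C or T. The first set is shown because these members carried some of the changes described below, with Rps6, a substrate of S6 kinase, added for reference.
Rps18 (chr17:33955641-33955670, minus strand): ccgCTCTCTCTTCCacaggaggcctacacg
Rpl13a (chr7:45128721-45128750, minus strand): gacaagaCCTCCTCCTTTCCCaggcggctg
Rps24 (chr14:24490673-24490702, plus strand): ggTCCTTCCTTgcgcgttgatatgattggt
Rps12 (chr10:23787185-23787214, minus strand): cggccaccgccggCCTTTTCCCCTgccgcc
Rpl22l1 (chr3:28805503-28805532, plus strand): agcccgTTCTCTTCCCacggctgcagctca
Rps6 (chr4:86857343-86857372, minus strand): cgggCCTCTTTTTCgtgacgcctcccaggc
The second set is shown because these members, which include those that departed most from the others, had no such run in the window. The 2 sets do not divide the changes. Rps3 of the second set also fell, as did Rps19, which had no run and is not shown, and members of the first set departed after IFNβ.
Rpl7l1 (chr17:46782632-46782661, minus strand): gcaagcgcagtagctgaagcaccggaaaga
Rpl24 (chr16:55966270-55966299, plus strand): tgctaggaaacagactgggcgctcggaagt
Rps3 (chr7:99483685-99483714, minus strand): tcgccgcgctgcgcggcgtcattgctcccg
Rps27l (chr9:66946081-66946110, plus strand): ccgccgcctctatcccggaagttgctgagg

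A run of at least 8 pyrimidines stood in the start window of 26 of the 64 members (40.6%) and of 11.9% of the 27025 genes with a window. The ETS letters CCGGAAG, searched on both strands of the 300-base promoter, were found for 25 of the 64 members (39.1%) and for 9.93% of all genes. An annotated start that lies some bases from the real one moves a run out of the window, so the absence of capitals says only that these letters are not there.

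A few properties of the arrays bear on all values. The 32 arrays lay on 4 slides that held 1 genotype each, so genotype and slide cannot be told apart. Between 44.6% and 78.1% of probes were well above background, and the 75th percentile of the unscaled signal ran from 8.91 to 10.5 on the log2 scale. The untreated WT arrays were among the brightest, with 75th percentiles of 10.1 and 10.5, and the WT LPS+zVAD arrays had 9.37 and 9.15. The macrophage genes Csf1r, Cd68 and Lyz2 were above background on all 32 arrays, while Cd3g and Cd3d, which mark T cells, were above background on 3 and 4 arrays. Cd3e, Cd79a, Elane, Mpo and the collagen genes were also above background on all 32 arrays. Some markers moved with genotype and slide. The fibroblast markers Col1a1 (4.91 to 7.95 in WT and 8.95 to 11.02 in Ifnar1-/- BMDMs) and Col1a2 (8.28 to 9.66 and 10.25 to 11.99) were higher on every Ifnar1-/- array, and the neutrophil marker Ly6g (6.81 to 12.31 and 2.75 to 5.14) and the macrophage gene Fcgr1 (12.30 to 16.73 and 6.81 to 11.83) were higher on every WT array. The ranges of the other 17 markers read after the filter overlapped between the genotypes, and the part of these genes in the results was not tested. Ifnar1 itself lay between 11.16 and 12.44 on the Ifnar1-/- arrays and between 12.53 and 14.76 on 13 of the WT arrays, with 14.22 and 14.19 in untreated WT BMDMs. The WT arrays given LPS+zVAD read 12.38 and 11.18, within the Ifnar1-/- range, and the first WT array given IFNβ+zVAD+Nec-1 read 9.02, below it, so Ifnar1 does not check the genotype label of these 3 arrays. Levels below are log2 signals after quantile normalisation, which gives every array the same distribution of signals, unless they are named as scaled by the 75th percentile, which shifts each array by 1 number.

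The position of the ribosomal protein genes within each array changed with treatment in WT BMDMs. The rank of the median member among all genes of the same array, which no scaling alters, was at the 98.8 and 98.7 percentile in the untreated WT arrays and at 97.8 and 97.7 in the LPS arrays. It was at 97.9 and 97.8 after IFNβ and at 98.2 on both arrays after LPS+zVAD. In counts, 191 to 205 genes gave a brighter signal than the median member in untreated WT BMDMs, 356 to 368 after LPS and 284 to 287 after LPS+zVAD. The untreated arrays did not overlap with those of LPS, IFNβ or LPS+zVAD. In Ifnar1-/- BMDMs the number lay between 159 and 246 on all arrays, with 166 to 179 in the untreated cells and 224 to 246 after LPS.

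**Figure D1:**
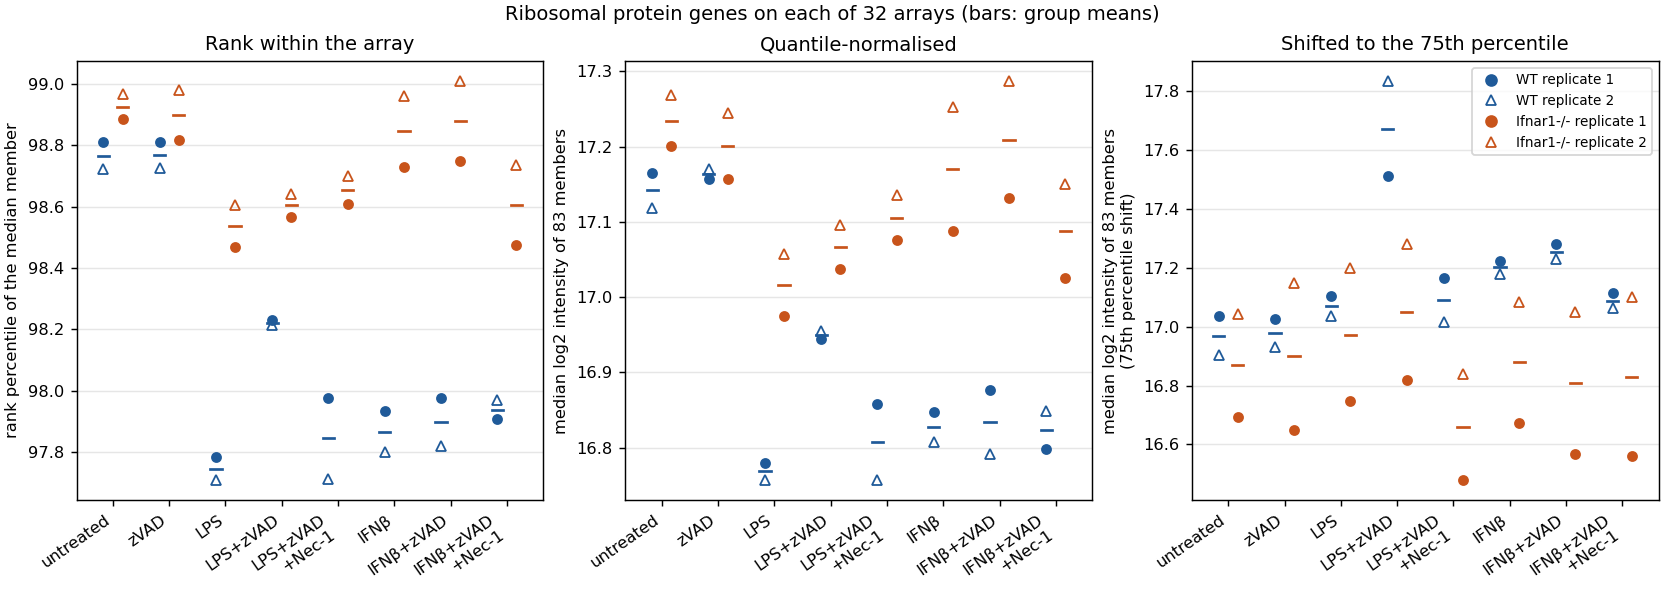
Rank percentile of the median ribosomal protein gene within each of the 32 arrays, and the median log2 signal of the 83 members after quantile normalisation and after scaling by the 75th percentile. Circles and triangles are the first and second array of a group and bars their mean, with WT in blue and Ifnar1-/- BMDMs in orange. The LPS arrays of WT BMDMs lie below the untreated ones after quantile normalisation (16.78 and 16.76 against 17.17 and 17.12) but not after 75th-percentile scaling (17.10 and 17.04 against 17.04 and 16.90), where LPS+zVAD is highest.

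The direction of the level of the whole group depended on the scaling. After quantile normalisation the median member read 17.17 and 17.12 in untreated WT BMDMs, 16.78 and 16.76 after LPS, 16.85 and 16.81 after IFNβ, and 16.94 and 16.95 after LPS+zVAD. All 3 stimulated groups were below the untreated one on that scale, and fewer transcripts per cell cannot be told apart here from fewer cells with high levels. With 75th-percentile scaling the same arrays gave 17.04 and 16.90, 17.10 and 17.04, 17.22 and 17.18, and 17.51 and 17.84, so that the stimulated groups were higher or level. On the unscaled signals, the distance from the median gene of an array to the median member was 7.00 to 7.21 in untreated WT BMDMs, 7.23 to 7.48 after LPS and 7.94 to 8.23 after LPS+zVAD. The members moved away from the middle of the distribution while more genes passed above them.

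In WT BMDMs, 36 of the 83 ribosomal protein genes were lower after LPS and 1, Rpl7l1, was higher on the quantile scale (limma, adjusted p under 0.05 over all genes). Over all genes 24.8% were called lower and 16.3% higher, so the share of members called lower was above that of all genes and the share called higher was below it. The median member differed by -0.39 on the log2 scale, beside -0.08 for the median gene. With 75th-percentile scaling Rpl7l1 alone was called, higher as before, where 18.6% of all genes were higher, and the median member stood at 0.13 beside 0.07 for all genes. With the slide as a block, 55 members were lower and 2 higher on the quantile scale, again above the 31.8% and below the 22.0% of all genes called under that fit. Leaving out 1 array lowered the total of 37 calls to 8 without the first untreated array, 24 without the second, and 19 without either LPS array. The share of all genes called in such smaller fits is not given here or below. These drops therefore cannot be read as particular to the members.

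Rps18, a protein of the head of the small subunit, read 16.49 and 16.52 in untreated WT BMDMs and 15.80 and 15.61 after LPS. The groups did not overlap, and Rps18 fell by 0.80 ± 0.19 (SE, n = 2 arrays per group; limma adjusted p = 0.0025), although with 75th-percentile scaling the levels were 16.33 and 16.34 against 16.12 and 16.06 and the difference of -0.25 was not called (adjusted p = 0.54). Rps15, also of the small-subunit head, gave 16.31 and 16.16 against 15.62 and 15.28 and fell by 0.79 ± 0.24 (adjusted p = 0.012). On the other scale its difference was -0.21, not called. Rps3, which lines the entry of the mRNA channel, had the largest difference of the members called, -0.90 ± 0.23 (adjusted p = 0.004), from 16.30 on 1 untreated array to 15.52 and 15.29 after LPS. The spot of the second untreated array was marked as an outlier by the scanner software and dropped, so this value rests on 1 control array. The 3 probes of Rps3 gave -0.69, -0.79 and -0.90, and the 75th-percentile value was -0.32, not called.

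Rps19, the gene most often mutated in Diamond-Blackfan anaemia, was among the members with the smallest adjusted p. It read 16.28 and 16.11 in untreated cells and 15.59 and 15.35 after LPS, and fell by 0.73 ± 0.15 (adjusted p = 0.00059). With 75th-percentile scaling its levels of 16.09 and 15.89 against 15.90 and 15.83 overlapped. Among the other small-subunit genes chosen for their known roles, Rpsa, first described as a laminin receptor precursor, differed by -0.53 (adjusted p = 0.03) and Rps4x by -0.52 (adjusted p = 0.029). The ubiquitin fusion gene Rps27a (-0.15, adjusted p = 0.57) and the ubiquitin-like fusion gene Fau (-0.16, adjusted p = 0.46) were not called, and neither was Rps6 (-0.39, adjusted p = 0.094).

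In the large subunit, Rpl5 and Rpl11 bind the 5S rRNA and, when free, the p53 ligase Mdm2. Rpl5 read 15.84 and 15.92 in untreated WT BMDMs and 15.19 and 15.23 after LPS and fell by 0.67 ± 0.23 (adjusted p = 0.025), whereas Rpl11 differed by -0.38 and was not called (adjusted p = 0.1). Rpl13a, known from human monocytes as a protein that leaves the ribosome to silence inflammatory mRNAs, gave 16.83 and 16.69 against 16.29 and 16.18 and fell by 0.53 ± 0.17 (adjusted p = 0.02). On the 75th-percentile scale the difference was -0.08 for Rpl5 and -0.04 for Rpl13a, neither called. In the stalk, which recruits elongation factors, Rplp1 fell by 0.49 ± 0.14 (adjusted p = 0.0087) on the quantile scale and turned to 0.04 with 75th-percentile scaling, while Rplp0 (-0.60, adjusted p = 0.24) and Rplp2 (-0.37, adjusted p = 0.065) were not called. Rplp0 read 18.17 on both untreated arrays and 17.61 and 17.51 after LPS, without overlap, whereas the groups overlapped with 75th-percentile scaling. The spread used for its p-value is shared by all groups and includes WT IFNβ+zVAD+Nec-1, where Rplp0 read 15.38 and 17.55. The missing call therefore does not show a smaller fall than that of Rplp1.

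The small and large subunit did not stand apart from each other after LPS. The median difference was -0.39 in both, with 13 of 33 small-subunit genes and 21 of 42 large-subunit genes called lower, beside 24.8% of all genes. With 75th-percentile scaling the medians were 0.13 and 0.12, and no member of either class was called (limma; 0 small-subunit genes and 1 large-subunit gene at an unadjusted p under 0.05). All probes of a gene gave the same direction for 57 of the 63 members with several probes on the quantile scale. Members with a pyrimidine run in the start window had a median of -0.36 (26 genes) and those without it of -0.46 (36 genes), and the values were 0.15 and 0.06 on the other scale.

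IFNβ in WT BMDMs was measured against the same 2 untreated arrays, as were all WT treatments, so the values share the error of those arrays. On the quantile scale 19 members were lower and 0 higher, beside 21.6% of all genes called lower, so that the share of members was close to that of all genes. The median member differed by -0.32 and the median gene by -0.17. With 75th-percentile scaling Rps24 was the only member called, at 0.73 ± 0.26 (adjusted p = 0.039), where 14.7% of all genes were called higher, and the median member was at 0.21 beside -0.02. With the slide as a block 44 members were lower, which is above the 30.8% of all genes under that fit. Without 1 array, 7 and 11 were called when the first or the second untreated array was left out, and 9 and 6 when the first or the second IFNβ array was.

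Rpl22l1, a paralog of Rpl22 that can take its place in the ribosome and acts in splicing, had the largest fall after IFNβ. It read 15.31 and 15.20 in untreated WT BMDMs, 14.55 and 14.34 after IFNβ and 14.44 and 14.47 after IFNβ+zVAD. The stimulated arrays lay below the untreated ones, and Rpl22l1 fell by 0.81 ± 0.18 (adjusted p = 0.0016). With 75th-percentile scaling the difference was -0.24 and was not called. Rpl22 itself was not called after IFNβ (-0.25, adjusted p = 0.27). Rps18 differed by -0.79 ± 0.19 (adjusted p = 0.0036) at 15.88 and 15.56, and its second probe gave -0.43. On the 75th-percentile scale Rps18 was at -0.32 and was not called. By subunit, 11 of 33 small-subunit genes were lower with a median of -0.40, and 6 of 42 large-subunit genes with a median of -0.31. The 21.6% of all genes called lower lies between these shares, and the subunits were not tested against each other.

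**Figure D2:**
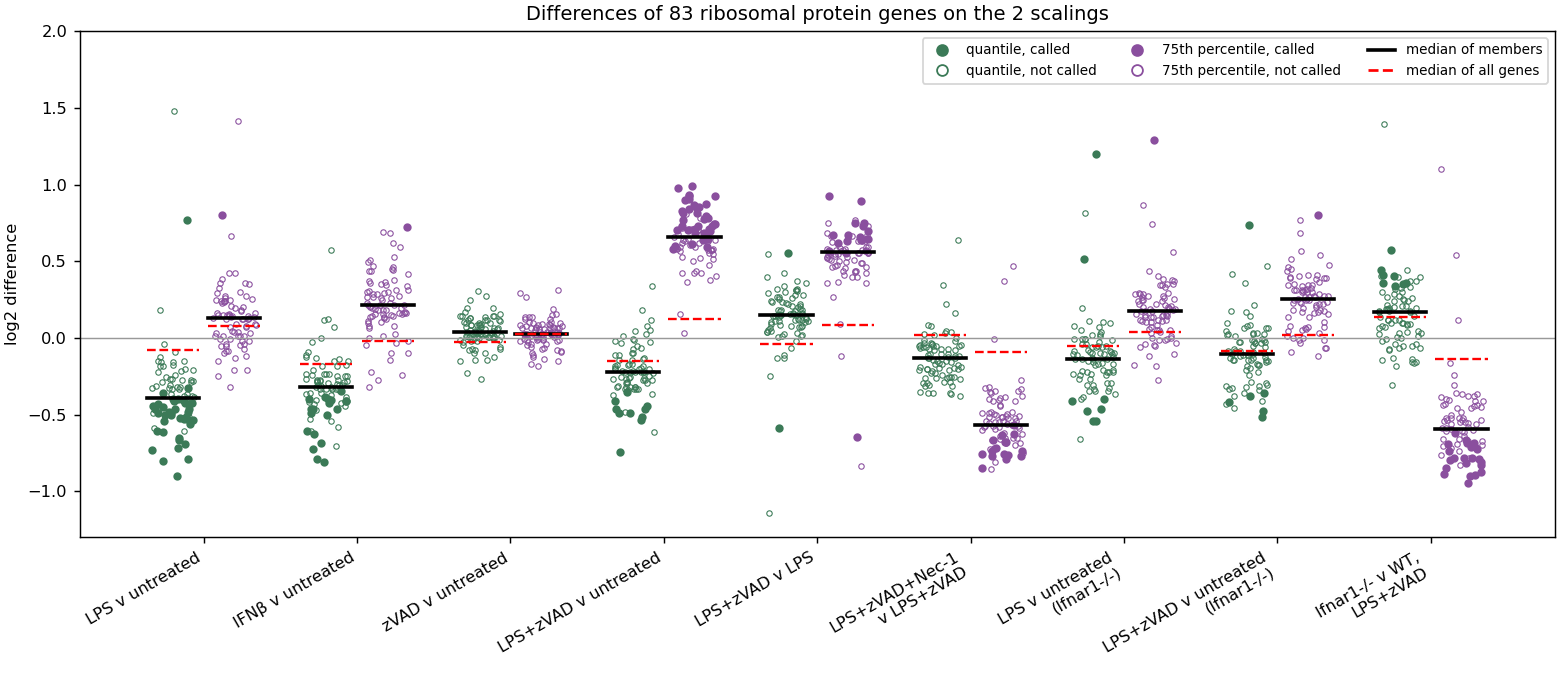
Log2 difference of each of the 83 ribosomal protein genes in 9 comparisons, in WT BMDMs unless labelled, after quantile normalisation (green) and with 75th-percentile scaling (purple). Each point is a gene, filled where limma called it, with a black bar at the median of the members and a dashed red bar at the median of all genes. After LPS in WT BMDMs the members centre at -0.39 on the first scale and at 0.13 on the second, and after LPS+zVAD at -0.22 and 0.66.

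zVAD alone left the members near the untreated level in WT BMDMs. No member was called by limma, 0 had an unadjusted p under 0.05, and 0.00622% of all genes were called. The median member differed by 0.04. Rps18, for example, read 16.54 and 16.19 after zVAD and 16.49 and 16.52 without it, so that the arrays overlapped.

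Stimulation with LPS+zVAD gave the widest gap between the scalings. On the quantile scale 10 members were lower than in untreated WT BMDMs and 0 higher, which is below the 32.6% of all genes called lower, and the median was -0.22 beside -0.15 for all genes. With 75th-percentile scaling 38 members were higher and 0 lower, above the 21.5% of all genes called higher, with a median of 0.66 beside 0.12, and all 83 members had a positive difference. With the slide as a block, 28 were lower on the quantile scale, still below the 38.6% of all genes. The count of 10 fell to 3 and 7 without the first or the second untreated array and to 7 and 5 without the first or the second LPS+zVAD array. The 75th percentile of the unscaled signal, 9.37 and 9.15 in these arrays against 10.1 and 10.5 in the untreated ones, moved with this result, and its part in it was not tested.

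Rps27l, a paralog of Rps27 known as a target of p53, had the largest fall on the quantile scale after LPS+zVAD. Its levels were 15.64 and 15.21 in untreated WT BMDMs and 14.70 and 14.67 after LPS+zVAD, a fall of 0.74 ± 0.21 (adjusted p = 0.0053), and the value was 0.03 with 75th-percentile scaling. Rpl23, another protein that binds Mdm2, went from 18.19 and 18.25 to 17.70 and 17.68 and fell by 0.53 ± 0.14 (adjusted p = 0.0034). With 75th-percentile scaling its sign turned, to 0.42, and Rpl22 likewise was at -0.51 on the first scale and 0.36 on the second. The largest rises on the 75th-percentile scale were those of Rps12 (0.99), Rps23 (0.98) and Rpl24, Fau and Rps27 (0.93 each), of which Rps12 went from 17.64 and 17.28 to 18.37 and 18.52. On the quantile scale the same 5 genes lay between 0.03 and 0.12 and none was called.

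Set against LPS alone, LPS+zVAD raised Rps3 and lowered Rpl7l1 in WT BMDMs on both scales. Rps3 read 15.52 and 15.29 after LPS and 16.005 and 15.919 after LPS+zVAD, so the arrays did not overlap and the difference was 0.56 ± 0.19 (adjusted p = 0.027) on the quantile scale and 0.89 ± 0.24 (adjusted p = 0.008) on the other. These were the only 2 members called on the quantile scale, where 12.9% of all genes were higher and 21.7% lower. With 75th-percentile scaling 15 members were higher and 1 lower, beside 13.0% and 19.9% of all genes, and the median was 0.56 beside 0.08. Of the other members, Rpl13a was at 0.75 (adjusted p = 0.017) and Rps19 at 0.63 (adjusted p = 0.027) on that scale, and at 0.32 for both and not called on the quantile scale. The slide block gave 11 members higher and 2 lower on the quantile scale, beside 20.0% and 28.1% of all genes. Without the first LPS or the second LPS+zVAD array 1 member was called, and without the second LPS or the first LPS+zVAD array 0.

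Adding Nec-1 to LPS+zVAD gave no call among the members on the quantile scale (limma; 4 members at an unadjusted p under 0.05), where 28.4% of all genes were called. The median member differed by -0.13. With 75th-percentile scaling 16 members were lower and 0 higher, beside 9.92% of all genes called lower, with a median of -0.57 beside -0.09. Rps19 shows the pattern on that scale, with 15.90 and 15.83 after LPS, 16.33 and 16.66 after LPS+zVAD and 15.81 on both arrays with Nec-1 added. The LPS+zVAD arrays lay above the other 4. The same arrays read 15.59 and 15.35, 15.82 and 15.75, and 15.61 and 15.51 after quantile normalisation, in the same order with smaller gaps. With the slide as a block 7 members were lower on the quantile scale, below the 17.2% of all genes, and 1 was higher, below the share of all genes called higher.

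Adding inhibitors to IFNβ gave no call among the members. Against untreated cells IFNβ+zVAD lowered 17 members on the quantile scale, close to the 23.1% of all genes called lower, with a median of -0.32, and Rpl22l1 (-0.80) and Rps18 (-0.77) were again among the largest falls. With 75th-percentile scaling Rps24 alone was called (0.72), higher, beside 15.4% of all genes. The slide block gave 48 lower, above the 31.8% of all genes. Without the block the count became 6 and 11 without the first or the second untreated array and 10 and 5 without the first or the second IFNβ+zVAD array. Against IFNβ alone, IFNβ+zVAD gave no call among the members (0 at an unadjusted p under 0.05) and 0.0% of all genes by limma. IFNβ+zVAD+Nec-1 against IFNβ+zVAD gave no call either (3 members at an unadjusted p under 0.05; 0.0% of all genes). Those 3 differences rest on 1 array, the first with Nec-1 (the array with the lowest Ifnar1 value), on which Rps7 read 13.12 against 16.06 on the second, Rpl41 14.82 against 17.61 and Rplp0 15.38 against 17.55. Without the second array these 3 genes were called lower, and the other 2 probes of Rplp0 differed by 0.06 and 0.05.

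In Ifnar1-/- BMDMs given LPS, 2 members were higher and 6 lower than in untreated ones on the quantile scale, below the 10.9% and 13.9% of all genes, with a median of -0.14 beside -0.06 for all genes. With 75th-percentile scaling Rpl7l1 alone was called, beside 11.8% of all genes called higher, and the median was 0.18. The members called lower on the quantile scale included Rps3 (-0.54, adjusted p = 0.041) and Rpsa (-0.54, adjusted p = 0.042). With the slide as a block 15 were lower and 3 higher, below the 21.7% and 16.8% of all genes. The total of 8 became 2 and 3 without the first or the second untreated array, and 2 and 3 without the first or the second LPS array.

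LPS+zVAD in Ifnar1-/- BMDMs gave 1 member higher and 5 lower on the quantile scale, below the 11.0% and 17.2% of all genes. On the 75th-percentile scale Rpl7l1 was the member called, with 11.4% of all genes called higher, and the median of the members was 0.26. Rpsa (-0.51) and Rpl22 (-0.48) were among those called lower on the quantile scale, and lay at -0.11 and -0.09 on the other. The slide block gave 17 lower and 2 higher, below the 25.9% and 17.0% of all genes. The total of 6 became 1 without either untreated array or without the first LPS+zVAD array, and 0 without the second. LPS+zVAD against LPS gave no call in this genotype (limma; 2 members at an unadjusted p under 0.05; 8.25% of all genes), although 1 member was called without the second LPS array.

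IFNβ gave no call among the members in Ifnar1-/- BMDMs (limma; 3 members at an unadjusted p under 0.05), nor among all genes, with 0.0% called. The median member differed by 0.01. zVAD alone called no member (0 at an unadjusted p under 0.05; 0.0% of all genes), and IFNβ+zVAD called none (3 at an unadjusted p under 0.05; 0.00622% of all genes).

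The difference between the genotypes in their response was tested directly. The response to IFNβ was higher in Ifnar1-/- than in WT BMDMs for 7 members on the quantile scale, near the 10.2% of all genes, and for none with 75th-percentile scaling. Rpl36al, a paralog of Rpl36a, read 15.37 and 15.26 in untreated WT BMDMs, 14.93 and 14.84 after IFNβ, 14.64 and 15.23 in untreated Ifnar1-/- BMDMs, and 15.62 and 15.43 after IFNβ. Its response differed by 1.02 ± 0.32 (adjusted p = 0.031), and by 0.46 on the other scale, not called. The untreated Ifnar1-/- arrays differed from each other by more than the WT response did. For Rpl22l1 the response differed by 0.94 ± 0.25 (adjusted p = 0.014), with 15.05 and 15.26 against 15.46 and 15.11 in Ifnar1-/- BMDMs, which overlapped. For Rpl13a it differed by 0.77 ± 0.24 (adjusted p = 0.033). The slide block raised the count to 25 members, above the 20.6% of all genes under that fit. Leaving out 1 array gave between 0 and 7, with 0 without the first untreated array of either genotype, 1 without the second WT IFNβ array, 2 without the first IFNβ array of either genotype and 4 without the second untreated WT array.

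The response to LPS was not called different for any member (limma; 5 at an unadjusted p under 0.05; 6.63% of all genes), and 5 members were called higher in Ifnar1-/- BMDMs with the slide block, beside 9.86% of all genes. The response to LPS+zVAD was called different for 2 members, Rplp1 (0.63) and Rpl23 (0.60), beside 11.3% of all genes called higher, with 4 under the slide block, beside 20.1%. With 75th-percentile scaling both turned, to -0.0042 and -0.027. That call was lost when either WT untreated array, the first Ifnar1-/- untreated array or any of the 4 LPS+zVAD arrays was left out, with 0 members called each time.

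Ifnar1-/- and WT BMDMs given LPS+zVAD were also compared with each other, with genotype and slide confounded as above and with Ifnar1 overlapping between the 2 groups. On the quantile scale 8 members were higher in Ifnar1-/- BMDMs, below the 25.7% of all genes, and with 75th-percentile scaling 22 were lower, above the 15.1% of all genes. The medians were 0.17 and -0.59, so the direction of the group turned with the scaling. Rps27l was at 15.15 and 15.36 against 14.70 and 14.67 in WT and differed by 0.57 ± 0.21 (adjusted p = 0.034), with 0.11 on the other scale. Rpl24 (0.41) was also called higher and turned to -0.37. A block of slides within each genotype gave 19 members higher, beside 33.1% of all genes, and leaves the difference between the slides of the genotypes in place. Leaving out the first WT array left 0 calls, and leaving out the second WT or either Ifnar1-/- array left 1.

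Rpl7l1 was called after LPS on both scalings in both genotypes. It was read from its only probe, as were Rps27l, Rpl22l1, Rpl36al, Rps19 and Rpl5, so no second probe checks these genes. In WT neither its rise after LPS nor its fall from LPS to LPS+zVAD was called when only the arrays compared were fitted. Rpl7l1 is related to Rpl7 and is known from the assembly of the large subunit. It read 9.80 and 9.70 in untreated WT BMDMs, 10.54 and 10.50 after LPS, 9.79 and 10.08 after LPS+zVAD and 10.32 and 10.23 with Nec-1 added. In Ifnar1-/- BMDMs it read 9.67 and 9.62 untreated, 10.66 and 11.03 after LPS and 10.32 and 10.44 after LPS+zVAD. The LPS arrays lay above the untreated ones in both genotypes without overlap. LPS raised it by 0.77 ± 0.21 in WT (adjusted p = 0.0059) and by 1.20 ± 0.21 in Ifnar1-/- BMDMs (adjusted p = 0.00045). With 75th-percentile scaling the values were 0.80 (adjusted p = 0.0079) and 1.29 (adjusted p = 0.00043). LPS+zVAD against untreated gave 0.18 in WT, which was not called (adjusted p = 0.49), and 0.73 in Ifnar1-/- BMDMs (adjusted p = 0.013), and LPS+zVAD against LPS in WT gave -0.59 ± 0.21 (adjusted p = 0.035) and -0.65 on the other scale (adjusted p = 0.033). After IFNβ it read 9.83 and 9.49 in WT, which overlapped with the untreated arrays.

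To see which members departed from the rest, each quantile-normalised array was also centred on the median of the members, a choice made after the data had been seen. After LPS in WT BMDMs 2 members departed, Rpl7l1 by 1.14 and Rpl24 by 0.56, beside 42.1% of all genes called in either direction on that scale. In Ifnar1-/- BMDMs the same 2 genes departed, by 1.42 and 0.73, beside 25.8% of all genes. After LPS+zVAD they departed by 0.90 and 0.52 in Ifnar1-/- BMDMs (27.0% of all genes). In WT the only departure was that of Rps27l, by -0.55 (49.7% of all genes), and it differed by 0.46 between the genotypes under LPS+zVAD (35.4% of all genes). LPS+zVAD against LPS in WT left Rpl7l1 at -0.77 (37.0% of all genes). No other member was called in these comparisons on that scale. On the 75th-percentile scale the same members lay on the same side of the members' median, with Rpl7l1 at 0.80 and Rpl24 at 0.66 against 0.13 after LPS in WT, and Rps27l at 0.03 against 0.66 after LPS+zVAD.

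**Figure D3:**
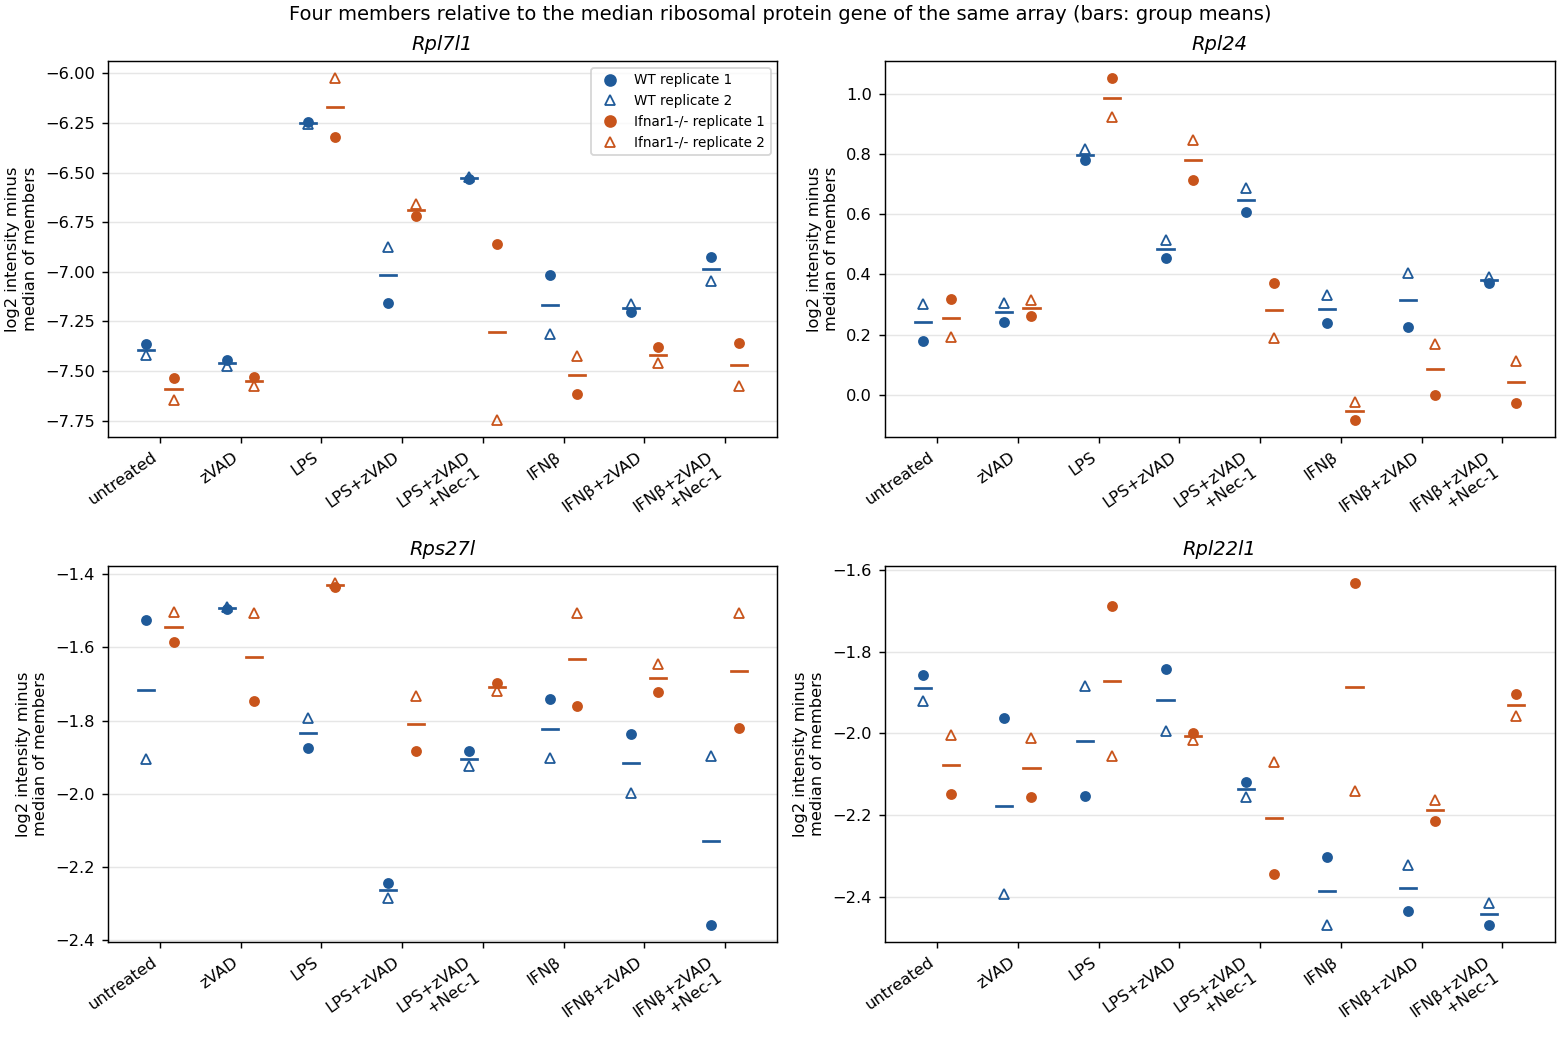
Log2 signal of Rpl7l1, Rpl24, Rps27l and Rpl22l1 minus that of the median ribosomal protein gene of the same array, after quantile normalisation, in each treatment. Circles and triangles are the first and second array of a group and bars their mean, with WT in blue and Ifnar1-/- BMDMs in orange. Departures are differences from the untreated arrays of the same genotype. Rpl7l1 and Rpl24 stand higher after LPS in both genotypes, with departures of 1.14 and 0.56 in WT and 1.42 and 0.73 in Ifnar1-/- BMDMs. Rps27l has its lowest group mean after LPS+zVAD in WT (departure -0.55), although the first WT array of IFNβ+zVAD+Nec-1 reads lower, at -2.36. Rpl22l1 lies low after IFNβ in WT (departure -0.50), and the second WT array given zVAD alone reads -2.39.

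Rpl24, which forms a bridge between the subunits, read 17.35 and 17.42 in untreated WT BMDMs and 17.56 and 17.57 after LPS, and 17.52 and 17.46 against 18.03 and 17.98 in Ifnar1-/- BMDMs. The LPS arrays were higher without overlap in both genotypes. On the quantile scale the difference was 0.18 in WT, not called, and 0.51 ± 0.14 in Ifnar1-/- BMDMs (adjusted p = 0.011), where the second probe gave 0.54. On the 75th-percentile scale the values were 0.66 (adjusted p = 0.072) and 0.74 (adjusted p = 0.067), neither called.

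After IFNβ in WT BMDMs 6 members departed from the members' median, beside 31.7% of all genes. Rpl22l1 (-0.50), Rps18 (-0.47) and Rpl35a (-0.37) were below it, and Rps23 (0.44), Rps24 (0.43) and Rps12 (0.39) above it. After IFNβ+zVAD 3 departed, beside 34.3% of all genes, among them Rpl22l1 (-0.49) and Rps18 (-0.46), both below.

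Probe sequence limits what can be told apart among the members, as a probe of Rps12 and one of Rps12l2, a second symbol the rule admits, show. Rps12l2 had no RefSeq gene entry and is counted among the 33 small-subunit genes. Both probes are 60 bases long and match mm9 as given in the array's annotation. They overlap over 56 bases, of which 53 are identical, and capitals mark the 3 that differ.
Rps12 (chr10:23505428-23505711, minus strand): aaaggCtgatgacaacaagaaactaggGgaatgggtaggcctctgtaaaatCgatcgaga
Rps12l2 (chr8:37089026-37089085, plus strand): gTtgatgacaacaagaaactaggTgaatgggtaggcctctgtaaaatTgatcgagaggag
These probes gave differences of -0.45 and -0.50 after LPS in WT BMDMs and of -0.23 and -0.17 after IFNβ, while the brighter Rps12 probe used above gave -0.12 after LPS. Signal of the 2 genes cannot be separated on probes this alike, and the 85 members may include more such pairs, since ribosomal protein genes have many processed copies in the genome. The brightest probes of Rps27 and Rps29 were annotated on chromosomes other than those of their genes, 9 and 2, and their values are uncertain for that reason.

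The remaining paralogs were compared with the genes they resemble. Rpl36a fell by 0.72 after LPS in WT BMDMs (adjusted p = 0.0023) from 15.93 and 15.76 to 15.21 and 15.04, whereas Rpl36al gave -0.21 and was not called. Rpl22 fell by 0.54 (adjusted p = 0.015) and Rpl22l1 by 0.50 (adjusted p = 0.031). Rps27 was at -0.21 and Rps27l at -0.49, neither called, and Rpl7 at -0.32 (adjusted p = 0.08) beside the rise of Rpl7l1. Rpl39 fell by 0.44 (adjusted p = 0.026), Rpl3 by 0.54 (adjusted p = 0.01) and Rpl10 by 0.43 (adjusted p = 0.022). With 75th-percentile scaling none of these was called except Rpl7l1, and 7 turned sign, namely Rpl10 (0.14), Rpl22l1 (0.14), Rpl39 (0.05), Rpl36al (0.42), Rps27 (0.26), Rps27l (0.15) and Rpl7 (0.15). Rpl39l, a form best known from the testis, was dim and its replicates disagreed, with 6.28 and 8.55 in untreated Ifnar1-/- BMDMs, and its difference of 1.48 after LPS in WT was not called (adjusted p = 0.31). Of the members not retained, Rpl3l was above background on 12 of 32 arrays.

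Genes that act with the ribosomal proteins were read from 3 lists. The 25 other TOP mRNAs encode mostly translation factors. Of these 14 were lower and 0 higher after LPS in WT BMDMs on the quantile scale, beside 24.8% and 16.3% of all genes, with a median of -0.57. With 75th-percentile scaling 1 was lower and 1 higher, beside 18.5% and 18.6% of all genes, with a median of -0.08. Eef2, the elongation factor that moves the ribosome along the mRNA, fell by 0.72 (adjusted p = 0.001) and stood at -0.22 on the other scale, while Tpt1 fell by 0.35 (adjusted p = 0.047) and turned to 0.25 on the other scale, not called. Eef1a1 at -0.20 and Gnb2l1, the older symbol of Rack1, at -0.25 were not called, and both stood at 0.25 on the other scale. Pabpc1, the poly(A)-binding protein, fell by 0.73 after IFNβ (adjusted p = 0.0005) and stood at -0.28 on the other scale, not called. LPS+zVAD against LPS in WT raised 12 of the 25 and lowered 1 on the quantile scale, beside 12.9% and 21.7% of all genes, and raised 11 and lowered 1 on the other, beside 13.0% and 19.9%, with medians of 0.43 and 0.67. Adding Nec-1 lowered 10 and raised 1, beside 9.77% and 18.6% of all genes, and on the other scale lowered 13 and raised 1, beside 9.92% and 15.7%.

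Of the 82 genes of ribosome assembly and rRNA synthesis, 27 were higher and 10 lower after LPS in WT BMDMs, beside 16.3% and 24.8% of all genes, with a median of 0.32. In Ifnar1-/- BMDMs 36 were higher and 1 lower, beside 10.9% and 13.9%, with a median of 0.51. With 75th-percentile scaling 35 were higher and 5 lower in WT, beside 18.6% and 18.5% of all genes, and 38 and 0 in Ifnar1-/- BMDMs, beside 11.8% and 10.0%. After IFNβ in WT 6 were higher and 29 lower, beside 13.7% and 21.6% of all genes, and 8 and 15 on the other scale, beside 14.7% in either direction. The lists were not tested against each other. Polr1b, a subunit of RNA polymerase I, rose by 0.63 after LPS in WT (adjusted p = 0.04) and by 0.87 in Ifnar1-/- BMDMs (adjusted p = 0.011), and Fbl, which methylates rRNA, rose by 0.60 in Ifnar1-/- BMDMs (adjusted p = 0.025). The nucleolar chaperone Npm1, itself a TOP mRNA, read 15.98 and 15.83 in untreated WT BMDMs, 14.85 on both arrays after LPS, 16.35 and 16.55 after LPS+zVAD and 15.11 and 15.17 with Nec-1 added. The LPS+zVAD arrays were the highest, and the difference from LPS was 1.60 (adjusted p = 4.7e-06) and 1.96 on the other scale, and with Nec-1 -1.31 (adjusted p = 5.7e-05) and -1.79. Ncl, a further nucleolar protein, gave 1.54 (adjusted p = 7.4e-06) and -1.16 (adjusted p = 0.00019) for the same 2 comparisons.

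**Figure D4:**
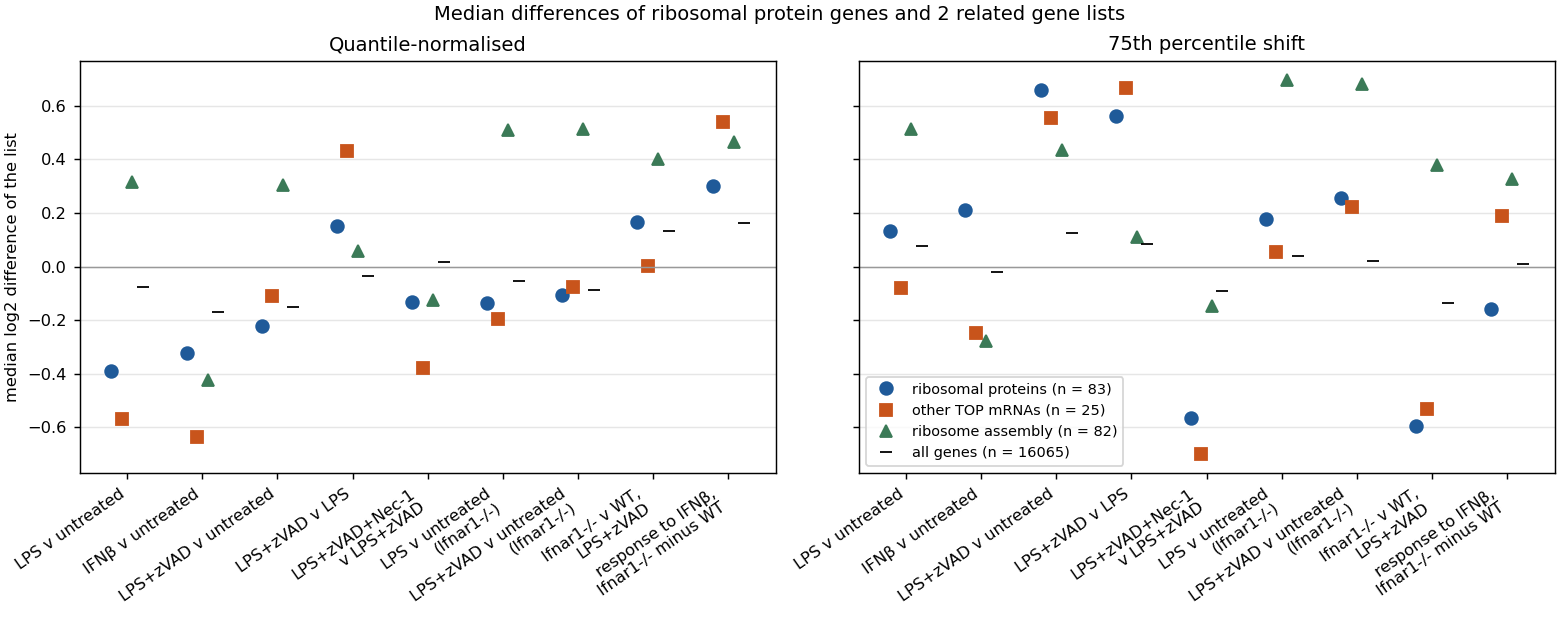
Median log2 difference of the ribosomal protein genes, the other TOP mRNAs, the ribosome assembly genes and all genes in 9 comparisons, in WT BMDMs unless labelled, on the 2 scalings. After LPS in WT BMDMs the medians of the 3 lists are -0.39, -0.57 and 0.32 after quantile normalisation and 0.13, -0.08 and 0.51 with 75th-percentile scaling, so the median of the assembly genes keeps its sign and that of the ribosomal proteins does not.

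Of the regulators, Larp1, which binds the cap and the TOP motif, read 14.08 and 13.95 in untreated WT BMDMs, 15.97 and 15.70 after LPS and 15.87 and 15.80 after IFNβ. The stimulated arrays lay above the untreated ones without overlap. Larp1 rose by 1.82 ± 0.18 after LPS (adjusted p = 4.9e-07) and by 1.82 after IFNβ (adjusted p = 3e-07), and by 2.35 and 2.27 with 75th-percentile scaling. In Ifnar1-/- BMDMs it read 13.70 and 13.54 untreated, 14.39 and 14.51 after LPS and 13.30 and 13.62 after IFNβ, and LPS raised it by 0.83 (adjusted p = 0.0021). The response to IFNβ differed between the genotypes by -1.98 (adjusted p = 2.3e-05). Myc, a driver of ribosome synthesis, rose by 2.53 after LPS+zVAD in WT BMDMs (adjusted p = 0.00015), was higher than after LPS by 1.72 (adjusted p = 0.0068), and changed by -1.37 with Nec-1 (adjusted p = 0.033). In WT it read 7.66 and 7.93 untreated, 8.90 and 9.59 after zVAD alone and 9.88 and 10.77 after LPS+zVAD. Untreated Ifnar1-/- BMDMs already read 10.05 and 9.87, beside 10.15 and 10.34 after LPS+zVAD.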

How the data were processed

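RNA of 32 BMDM samples was hybridised to 1-colour Agilent arrays of 55681 probes, and the scanner files deposited by the authors hold background-subtracted spot intensity values from Feature Extraction 11.5.1.1, with probes annotated on mm9. A table deposited by the authors holds quantile-normalised log2 values of the same arrays and was used as an alternative. Here the intensity was put on the log2 scale and quantile-normalised, outlier spots (130 to 499 an array) were dropped, probes well above background on at least 50% of arrays were kept (21496 of the 33140 with a symbol), and the brightest probe of each gene was tested. limma 3.58.1 (R 4.3.3) fitted the 16 group means to all 32 arrays (16 residual degrees of freedom) with Benjamini-Hochberg adjustment over 16065 genes, and calls were made at an adjusted p under 0.05. The procedure was also run on simulated data with independent noise on each array. Such data lack the deviations shared by arrays of 1 slide, so that run does not check the fit for them. Scaling by the 75th percentile of each array is shown beside it, since the study normalised by quantiles and the scaling decides the sign for this group of genes. No array had a saturated spot among those read, and the number of arrays limits the precision.

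Replicate numbers mark the slides within a genotype. Deviations of same-numbered arrays correlated at 0.32 to 0.67 in WT and 0.17 to 0.57 in Ifnar1-/- BMDMs, against 0.0008 to 0.33 between genotypes, so the slide was fitted as a block and its counts are given where they differ by over 1.5 times. The members, the lists of other genes and the tests were chosen with earlier results of these data known. Genes were named if among the 3 largest rises or falls of the members called in a comparison, or for their role (Rps6, Rps3, Rps19, Rpsa, Rps27a, Fau, Rpl5, Rpl11, Rpl13a, the stalk and the paralogs with their counterparts). Some members that the rule names are not reported here. Genes outside that rule, such as Rps7 and Rpl41, were named after their values were seen. Alternatives were background correction by normexp with an offset of 50, no filter, the mean of all probes of a gene, only the arrays compared, the authors' table, the slide block, leaving out the Ifnar1-/- LPS+zVAD+Nec-1 arrays or any 1 array, and centring on the members, which was added after the data had been seen. Start windows and promoters come from RefSeq (GRCm38.p6) and probe sequences from the array files.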

Additional observations from a re-analysis of the deposited data

Results flagged for a closer look

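Tests of the difference between the genotypes called 9 values, all from limma's interaction terms on the quantile scale, and none of the 9 was called with 75th-percentile scaling. Over all genes 10.2% were called higher for the response to IFNβ and 11.3% for that to LPS+zVAD. In this fit, which has no slide block, the members were thus called no more often than all genes. With the slide block the share of members called for the response to IFNβ was above the 20.6% of all genes, and for that to LPS+zVAD it was below the 20.1%. The response to IFNβ was higher in Ifnar1-/- than in WT BMDMs for Rpl36al by 1.02, for Rpl22l1 by 0.94, for Rpl13a by 0.77, for Rpl35a by 0.69, for Rpl23 and Rps15a by 0.66 each and for Rpl10a by 0.65. Rpl22l1, the paralog of Rpl22, had levels of 15.31 and 15.20 in untreated WT BMDMs and 14.55 and 14.34 after IFNβ, beside 15.05 and 15.26 against 15.46 and 15.11 in Ifnar1-/- BMDMs. The response to LPS+zVAD was higher in Ifnar1-/- BMDMs for Rplp1 by 0.63 and for Rpl23 by 0.60. Both genes began at a higher level in untreated WT than in untreated Ifnar1-/- BMDMs, with Rplp1 at 18.09 and 17.92 against 17.56 and 17.72 and Rpl23 at 18.19 and 18.25 against 17.83 and 17.82.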

How the results depend on the processing

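Every count below is the number of members called, higher then lower where both are given. Where the share of all genes under an alternative is given, it stands above with the comparison. The other counts have no such share beside them, so they do not tell a change of the members from one of all genes. With 75th-percentile scaling the lower calls were lost and the balance of calls was upward for WT LPS (1 called), IFNβ (1), LPS+zVAD (38) and IFNβ+zVAD (1) and for Ifnar1-/- LPS (1) and LPS+zVAD (1), and it was downward for Ifnar1-/- against WT under LPS+zVAD (22). The single call after LPS in either genotype and after LPS+zVAD in Ifnar1-/- BMDMs was Rpl7l1, already higher on the quantile scale, and that after IFNβ and IFNβ+zVAD was Rps24, which was not called there. It gave 16 for LPS+zVAD against LPS in WT, 16 for Nec-1 with LPS+zVAD, and 0 for the responses to IFNβ and to LPS+zVAD. The slide block, which fits a replicate block within each genotype, gave 57, 44, 28 and 48 for WT LPS, IFNβ, LPS+zVAD and IFNβ+zVAD, 18 and 19 for Ifnar1-/- LPS and LPS+zVAD, 13 for LPS+zVAD against LPS and 8 for Nec-1 in WT, 5, 25 and 4 for the responses to LPS, IFNβ and LPS+zVAD, and 19 for the genotypes under LPS+zVAD. Fitting only the arrays compared, which leaves 2 to 4 residual degrees of freedom, gave 0 for WT LPS, LPS+zVAD, IFNβ+zVAD, LPS+zVAD against LPS, the responses to IFNβ and LPS+zVAD and the genotypes, 1 for WT IFNβ, and 1 each, higher, for Ifnar1-/- LPS and LPS+zVAD. Normexp gave 4 for Ifnar1-/- LPS, 1 for LPS+zVAD against LPS, and 0 for the response to LPS+zVAD and the genotypes. Without the filter the calls were 2 and 1 for Ifnar1-/- LPS and LPS+zVAD, all higher, 0 for LPS+zVAD against LPS, the response to LPS+zVAD and the genotypes, and 2 for the response to IFNβ. The mean of all probes gave 31 and 33 for WT IFNβ and IFNβ+zVAD, 5 for Ifnar1-/- LPS, 5 (3 higher, 2 lower) for Ifnar1-/- LPS+zVAD, 17 for LPS+zVAD against LPS, 15 for Nec-1, 1 for the response to LPS, 0 for that to LPS+zVAD and 5 for the genotypes. The authors' table gave 5 for Ifnar1-/- LPS, 1 for LPS+zVAD against LPS, 3 and 0 for the responses to IFNβ and LPS+zVAD, and 0 for the genotypes. Centring on the members gave 2 higher for WT LPS, 6, 1 and 3 for WT IFNβ, LPS+zVAD and IFNβ+zVAD, 2 higher each for Ifnar1-/- LPS and LPS+zVAD, 1 for LPS+zVAD against LPS, 0 for the responses to IFNβ and LPS+zVAD, and 1 for the genotypes. Without both arrays of Ifnar1-/- BMDMs given LPS+zVAD+Nec-1, which disagreed on Cd14 and Mertk, the counts were 5 for LPS+zVAD against LPS and 12 for the response to IFNβ. The cause of these shifts was not tested.

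Leaving out 1 array gave 8 to 24 for WT LPS, 6 to 11 for IFNβ, 3 to 7 for LPS+zVAD, 5 to 11 for IFNβ+zVAD, 2 to 3 and 0 to 1 for Ifnar1-/- LPS and LPS+zVAD, 0 to 1 for LPS+zVAD against LPS in either genotype, 0 to 3 for Nec-1 with IFNβ+zVAD, 0 to 7 and 0 to 2 for the responses to IFNβ and LPS+zVAD, 0 to 1 for the genotypes and 0 elsewhere. Rps3 after LPS in WT has no value without the first untreated array. Of the 47 named values, the slide block changed no call, and 75th-percentile scaling kept 5 called, lost 27 and turned 15. Those that turned were, for WT LPS, Rpl10 (0.14), Rpl22l1 (0.14), Rpl39 (0.048) and Rplp1 (0.040), for IFNβ Rplp1 (0.28) and Rps19 (0.011), for LPS+zVAD Rpl22 (0.36), Rpl23 (0.42), Rplp1 (0.48), Rps19 (0.50) and Rps27l (0.031), for IFNβ+zVAD Rps19 (0.11), for the response to LPS+zVAD Rpl23 (-0.027) and Rplp1 (-0.0042), and for the genotypes Rpl24 (-0.37).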

Other observations

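Rpl39l differed between the 2 slides of the Ifnar1-/- arrays in all 8 treatments. Its log2 signal was lower on the first slide, with first-minus-second differences from -1.89 to -2.65, for example 6.28 against 8.55 in untreated cells and 6.66 against 8.55 after IFNβ. In untreated WT BMDMs the first array was the higher one, at 6.72 against 5.57.

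Single spots stood far from their replicate on the first WT array of IFNβ+zVAD+Nec-1, where the differences from the second array were -2.93 for Rps7, -2.79 for Rpl41 and -2.17 for Rplp0. None of these spots was marked as an outlier by the scanner software.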
